A study of Mus musculus with 8 samples.

Results

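The genes described here encode 9 enzymes of hepatic amino acid catabolism, *Tat*, *Tdo2*, *Hpd*, *Hal*, *Sds*, *Got1*, *Gpt*, *Gpt2* and *Prodh*. They were taken by symbol from the 38283 genes of a table of liver mRNA levels, all 9 were found, and all 9 passed the filter on low values. The mice were C57BL/6 males. RORα f/f mice carried loxP sites around exons 4 and 5 of *Rora*, which encodes the nuclear receptor RORα, and RORα LKO mice also carried Cre recombinase driven by the albumin promoter, which acts in hepatocytes. From 8 weeks of age both genotypes were fed control diet (CD) or high-fat diet (HFD, 60% of kcal from fat) for 10 weeks. The 4 groups had 2 libraries each, made from 2 pooled livers apiece, so that a group covered 4 mice and the p-values measure the spread between pooled libraries. The comparisons ask whether the enzymes differed with hepatic RORα on either diet, whether they differed with diet, and whether one difference depended on the other.

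The liver is the main site at which surplus amino acids are broken down. Aminotransferases move the amino group to a keto acid, dehydratases and lyases release it as ammonia, and oxygenases open aromatic rings, so that the nitrogen passes to urea and the carbon to glucose, ketone bodies or the citric acid cycle. Several of these enzymes, *Tat*, *Tdo2* and *Sds* among them, are textbook targets of glucocorticoids and of glucagon acting through cAMP, and *Sds* and *Hal* belong to the enzymes enriched in hepatocytes around the portal vein.

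Promoter windows from RefSeq (GRCm38.p6, 250 bases before to 50 bases after the gene start) were held for 7 of the 9 genes, those of *Tat*, *Tdo2*, *Hpd*, *Hal*, *Got1*, *Gpt2* and *Prodh*. Both strands of each window were searched for the core of the ROR response element (TAGGTCA or TGGGTCA), for the nuclear receptor half-site that this core contains (AGGTCA or GGGTCA), for the glucocorticoid receptor half-site AGAACA, for the C/EBP element TTGCNNAA and for the CRE half-site TGACG. The windows of *Tat*, *Got1* and *Prodh* are shown because these genes differed most with diet among the 7, and that of *Tdo2* because it was the one window of the 7 with a ROR core. Each runs 5′ to 3′ on the gene's strand and ends at the first transcribed base given by RefSeq, and capitals mark the motifs found. For *Tdo2* and *Prodh* this base (81975728 and 18089190) lies inside the gene as annotated by GENCODE. The GENCODE genes, on the minus strand, begin at 81976202 and 18090203.
Tat, chr8:109990186-109990436, plus strand: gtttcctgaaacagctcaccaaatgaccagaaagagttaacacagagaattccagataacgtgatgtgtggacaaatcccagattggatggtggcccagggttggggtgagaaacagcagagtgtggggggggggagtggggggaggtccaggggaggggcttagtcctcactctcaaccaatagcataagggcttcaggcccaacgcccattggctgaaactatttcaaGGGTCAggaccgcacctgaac
Got1, chr19:43524605-43524855, minus strand: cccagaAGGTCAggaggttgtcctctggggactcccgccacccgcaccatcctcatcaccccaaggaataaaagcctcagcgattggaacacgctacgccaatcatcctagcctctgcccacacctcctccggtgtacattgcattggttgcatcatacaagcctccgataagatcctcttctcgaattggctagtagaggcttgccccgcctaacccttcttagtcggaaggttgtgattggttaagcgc
Prodh, chr16:18089190-18089440, minus strand: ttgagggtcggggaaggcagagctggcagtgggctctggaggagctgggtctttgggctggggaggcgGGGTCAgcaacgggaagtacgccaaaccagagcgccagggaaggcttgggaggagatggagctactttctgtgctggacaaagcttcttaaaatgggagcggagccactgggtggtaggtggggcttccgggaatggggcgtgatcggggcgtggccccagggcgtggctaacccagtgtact
Tdo2, chr3:81975728-81975978, minus strand: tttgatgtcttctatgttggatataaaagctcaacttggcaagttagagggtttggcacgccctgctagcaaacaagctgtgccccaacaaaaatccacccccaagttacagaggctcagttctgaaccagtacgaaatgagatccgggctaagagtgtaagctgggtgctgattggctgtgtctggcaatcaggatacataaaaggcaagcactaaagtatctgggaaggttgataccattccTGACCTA

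The ROR core was present in 1 of 7 windows, against 6.45% of the 32851 windows of all genes. In *Tdo2* it lay on the opposite strand from base −6 to base 1 of the RefSeq transcript. The half-site was present in 5 of 7 windows, against 27.5% of all windows, starting at base −20 in *Tat*, −182 in *Prodh*, −184 in *Hpd* and −244 in *Got1*, and within the ROR core in *Tdo2*. The C/EBP element was found in 1 of 7, starting at base −150 in *Hal*, against 10.8% of all windows. The glucocorticoid receptor half-site and the CRE half-site were found in 0 of 7, against 19% and 20.8% of all windows. These are matches of letters in a short window and not measured binding.

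Expression was given as FPKM, fragments scaled to transcript length and to mapped reads, so that levels can be compared between genes, but the depth behind a value is unknown. Between 10587 and 10706 genes exceeded 1 FPKM in a library. On CD, *Rora* itself was listed at 8.85 and 8.59 FPKM under the f/f label and at 7.96 and 8.18 under the LKO label. On HFD it was listed at 7.56 and 7.86 under the f/f label and at 7.30 and 8.02 under the LKO label. The genotypes overlapped on HFD (log2 difference 0.014 ± 0.072, SE, adjusted p = 0.974), and a value over the whole gene does not measure exons 4 and 5 alone, so the libraries are called f/f-labelled and LKO-labelled. Of the hepatocyte markers, *Alb* was listed at 0 in 4 of the 8 libraries (CD-fed LKO-labelled 1, HFD-fed f/f-labelled 2 and both HFD-fed LKO-labelled libraries) and at 29902 FPKM or more in the others. In the same 8 libraries *Apoa1* ranged from 4407 to 6290 FPKM and *Ttr* from 3994 to 4541 FPKM, so that the 0 values of *Alb* may be failed estimates and are not read as absence.

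By level, *Hpd* stood first in all 8 libraries. It was followed by *Tdo2*, except in CD-fed f/f-labelled mice, where *Tat* was above *Tdo2*. The other 6 genes lay between 48.0 FPKM (*Got1* in HFD-fed LKO-labelled library 1) and 236 FPKM (*Got1* in CD-fed f/f-labelled library 2). The plot of FPKM by library shows all values.

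**Figure D1:**
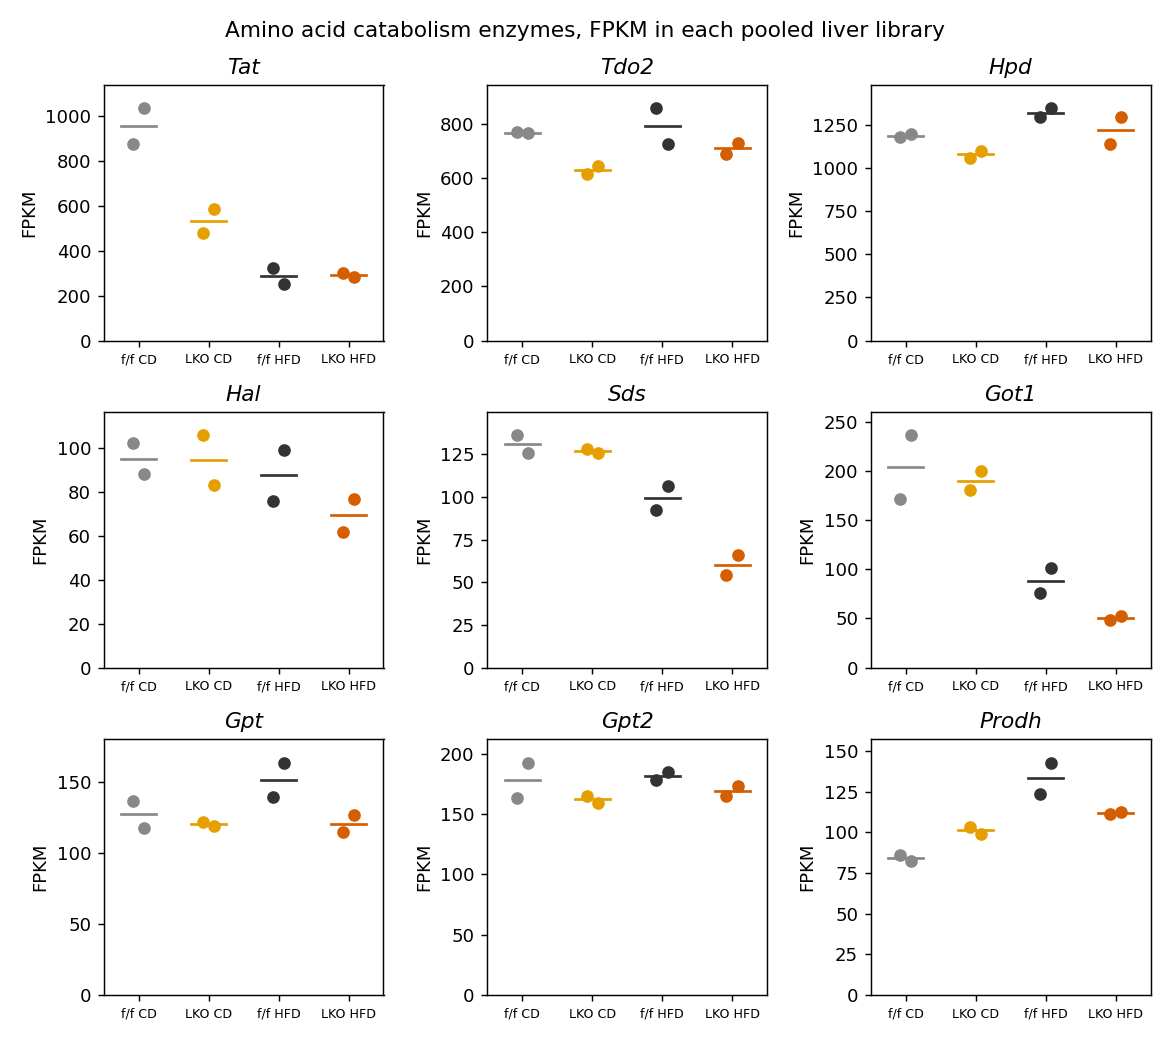
FPKM of the 9 genes (vertical axes, each from 0) in the 8 liver libraries, by genotype label and diet (horizontal axes). Each point is 1 library of 2 pooled livers and each line the mean of 2 libraries. *Tat* falls from 876 and 1036 FPKM in CD-fed f/f-labelled libraries to 322 or less in all HFD-fed libraries, and *Got1* and *Sds* are lowest in the HFD-fed LKO-labelled libraries.

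*Tat* encodes tyrosine aminotransferase, which catalyses the rate-limiting first step of tyrosine degradation. The gene lies at chr8:109990437-109999803 on the plus strand (GRCm38). It was measured at 876 and 1036 FPKM in CD-fed f/f-labelled libraries, at 480.4 and 586 in CD-fed LKO-labelled libraries, at 322 and 250.4 in HFD-fed f/f-labelled libraries and at 302 and 284 in HFD-fed LKO-labelled libraries. The CD-fed libraries separated fully by label, and every CD-fed library lay above every HFD-fed one, whereas the labels overlapped on HFD. On the log2 scale after normalization, *Tat* fell with HFD in f/f-labelled mice (−1.53 ± 0.18, SE, a ratio of 0.346, adjusted p = 0.0266). In LKO-labelled mice the difference was −0.74 ± 0.18 (adjusted p = 0.0736), and this became a call in 4 of 9 alternatives, namely without normalization between libraries, with median centring, where only genes above 1 FPKM in all 8 libraries were kept and where genes listed at 0 anywhere were removed (differences of −0.85 to −0.73, lowest adjusted p = 0.0407). Over both genotypes *Tat* fell to a ratio of 0.454 (−1.14 ± 0.12, adjusted p = 0.00606). The LKO-labelled minus f/f-labelled difference was −0.74 ± 0.18 on CD (adjusted p = 0.223) and 0.050 ± 0.18 on HFD (adjusted p = 0.958), and neither passed the test. In bulk liver, fewer cells of a type and less RNA per cell cannot be told apart.

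*Hpd* encodes 4-hydroxyphenylpyruvate dioxygenase, which acts on the product of tyrosine aminotransferase (chr5:123171807-123182727, minus strand). It was listed at 1179 and 1198 FPKM in CD-fed f/f-labelled libraries, at 1058 and 1102 in CD-fed LKO-labelled libraries, at 1294 and 1348 in HFD-fed f/f-labelled libraries and at 1141 and 1296 in HFD-fed LKO-labelled libraries. Within each label the HFD-fed libraries were the higher ones, but over both labels the diets overlapped, and the whole range spanned less than that of any other member except *Gpt2* in proportion to its level. After normalization *Hpd* rose with HFD over both genotypes by 0.37 ± 0.067 (adjusted p = 0.0221). This call depended on the scaling, with a difference of 0.16 (adjusted p = 0.132) without normalization and of 0.19 (adjusted p = 0.087) with median centring. Of the 8 alternatives that kept all libraries, these 2 scalings included, 5 kept the call. It was kept in 2 of 8 fits that left out 1 library (without CD-fed LKO-labelled library 1 or 2) and lost in the other 6, with adjusted p up to 0.0813. Of the later enzymes of tyrosine breakdown, *Gstz1* (maleylacetoacetate isomerase, 0.33, adjusted p = 0.0206) and *Fah* (fumarylacetoacetate hydrolase, 0.20, adjusted p = 0.0475) rose over both genotypes, and both calls were lost without normalization and with median centring.

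*Tdo2* encodes tryptophan 2,3-dioxygenase, which opens the indole ring at the entry to the kynurenine pathway (chr3:81957090-81976202, minus strand). Its FPKM was 769 and 763 in CD-fed f/f-labelled libraries, 615 and 645 in CD-fed LKO-labelled libraries, 857 and 723 in HFD-fed f/f-labelled libraries and 689 and 728 in HFD-fed LKO-labelled libraries. On CD both LKO-labelled libraries lay below both f/f-labelled ones, and on HFD the labels overlapped. No difference passed the adjusted test. The LKO-labelled minus f/f-labelled difference was −0.22 ± 0.12 on CD (adjusted p = 0.497) and −0.095 ± 0.12 on HFD (adjusted p = 0.829), and the diet difference over both genotypes was 0.29 ± 0.083 (adjusted p = 0.0726). The last value was 0.10 (adjusted p = 0.362) without normalization, and 0.29 with a call (adjusted p = 0.0349) where only genes above 1 FPKM in all 8 libraries were kept.

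*Hal* encodes histidine ammonia-lyase, the first enzyme of histidine degradation (chr10:93488768-93519304, plus strand). It was listed at 102 and 88.1 FPKM in CD-fed f/f-labelled libraries, at 106 and 83.0 in CD-fed LKO-labelled libraries, at 76.1 and 99.0 in HFD-fed f/f-labelled libraries and at 62.0 and 76.8 in HFD-fed LKO-labelled libraries. The lowest value came from an HFD-fed LKO-labelled library, but the labels overlapped on both diets. The genotype difference on HFD was −0.29 ± 0.17 (adjusted p = 0.637), and that of diet over both genotypes was −0.22 ± 0.12 (adjusted p = 0.295). The 3 later enzymes of the histidine pathway, *Uroc1*, *Amdhd1* and *Ftcd*, had diet differences of 0.014 to 0.25, none of which passed the test.

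*Sds* encodes serine dehydratase, which turns serine into pyruvate and ammonia (chr5:120476526-120483932, plus strand). It was measured at 136 and 126 FPKM in CD-fed f/f-labelled libraries, at 128 and 126 in CD-fed LKO-labelled libraries, at 92.2 and 107 in HFD-fed f/f-labelled libraries and at 54.2 and 65.8 in HFD-fed LKO-labelled libraries. The labels interleaved on CD, while on HFD both LKO-labelled libraries lay below both f/f-labelled libraries, and all HFD-fed libraries lay below all CD-fed ones. *Sds* fell with HFD in LKO-labelled mice (−1.0 ± 0.10, a ratio of 0.5, adjusted p = 0.0168) and over both genotypes (−0.67 ± 0.074, adjusted p = 0.00612), and in f/f-labelled mice the difference was −0.34 ± 0.10 (adjusted p = 0.155). The LKO-labelled minus f/f-labelled difference on HFD was −0.69 ± 0.10, a ratio of 0.622. Its adjusted p of 0.144 was the lowest among the 9 genes in that comparison and did not pass. On CD the difference was −0.025 ± 0.10 (adjusted p = 0.948). Exons of *Sds* share 360 bases with exons of *Plbd2* (16.6 to 22.5 FPKM) and 141 bases with the antisense gene *Gm15690* (0.256 to 3.77 FPKM), both on the opposite strand. The TruSeq v2 kit does not mark strand, so reads of these stretches cannot be told apart.

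*Got1* encodes the cytosolic aspartate aminotransferase, which also serves the malate-aspartate shuttle (chr19:43499752-43524605, minus strand). It was listed at 172 and 236 FPKM in CD-fed f/f-labelled libraries, at 180.2 and 199.5 in CD-fed LKO-labelled libraries, at 75.8 and 101 in HFD-fed f/f-labelled libraries and at 48.0 and 52.6 in HFD-fed LKO-labelled libraries. The 2 diets were fully apart, with every CD-fed library at 172 or more and every HFD-fed library at 101 or less, and on HFD the LKO-labelled libraries were the lower pair. *Got1* fell with HFD in f/f-labelled mice (−1.14 ± 0.19, adjusted p = 0.0464), in LKO-labelled mice (−1.83 ± 0.19, adjusted p = 0.0158) and over both genotypes (−1.48 ± 0.13, adjusted p = 0.0036), the last to a ratio of 0.358. The genotype difference was −0.76 ± 0.19 on HFD (adjusted p = 0.288) and −0.080 ± 0.19 on CD (adjusted p = 0.894). The mitochondrial isoenzyme gene *Got2* differed in the other direction with diet over both genotypes (0.19 ± 0.044, adjusted p = 0.0457), a call that was lost without normalization and with median centring.

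*Gpt* and *Gpt2* encode the cytosolic and the mitochondrial alanine aminotransferase, which exchange the amino group between alanine and glutamate (chr15:76695716-76699686 and chr8:85492576-85527560, both plus strand). *Gpt* was listed at 137 and 118 FPKM in CD-fed f/f-labelled libraries, at 122 and 119 in CD-fed LKO-labelled libraries, at 139.8 and 164 in HFD-fed f/f-labelled libraries and at 115 and 127 in HFD-fed LKO-labelled libraries. The HFD-fed f/f-labelled libraries were the highest pair, and the other 6 libraries overlapped. The genotype difference of *Gpt* on HFD was −0.29 ± 0.095 (adjusted p = 0.399), and its diet difference in f/f-labelled mice was 0.30 ± 0.095 (adjusted p = 0.163). *Gpt2* was listed at 163 and 193 FPKM in CD-fed f/f-labelled libraries, at 165 and 159 in CD-fed LKO-labelled libraries, at 178 and 185 in HFD-fed f/f-labelled libraries and at 165 and 173 in HFD-fed LKO-labelled libraries. Its 8 values spanned 159 to 193 FPKM, its genotype differences were −0.11 ± 0.10 on CD and −0.050 ± 0.10 on HFD, and its diet difference over both genotypes was 0.12 ± 0.072 (adjusted p = 0.331).

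*Prodh* encodes proline dehydrogenase, the mitochondrial enzyme of the first step of proline oxidation (chr16:18060357-18090203, minus strand). It was measured at 85.9 and 82.3 FPKM in CD-fed f/f-labelled libraries, at 103 and 98.8 in CD-fed LKO-labelled libraries, at 124 and 143 in HFD-fed f/f-labelled libraries and at 111 and 112 in HFD-fed LKO-labelled libraries. The LKO-labelled pair was the higher on CD and the lower on HFD, with no overlap on either diet, and all HFD-fed libraries lay above all CD-fed ones. *Prodh* rose with HFD by 0.70 ± 0.080 in f/f-labelled mice (adjusted p = 0.0266) and by 0.46 ± 0.057 over both genotypes (adjusted p = 0.00794), and the difference in LKO-labelled mice was 0.23 ± 0.080 (adjusted p = 0.169). The genotype difference was 0.25 ± 0.080 on CD (adjusted p = 0.311) and −0.22 ± 0.080 on HFD (adjusted p = 0.462). Of its partners, *Aldh4a1*, which completes proline oxidation, had a diet difference of −0.043 ± 0.064 and *Prodh2*, which acts on hydroxyproline, one of 0.14 ± 0.067, and neither passed the test (adjusted p = 0.713 and 0.22).

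The diet comparison over both genotypes asks which enzymes differed between HFD-fed and CD-fed livers whatever the label. *Tat*, *Got1* and *Sds* fell and *Prodh* and *Hpd* rose, so that 5 of 9 genes passed, against 9.89% of the 11634 genes tested. At an unadjusted p under 0.05 the counts were 7 of 9 and 27.9%. The median over the 9 genes was 0.12 and that over all genes 0.011, since the falls and rises were mixed. *Tat*, *Got1*, *Sds* and *Prodh* kept their calls in all 8 fits that left out 1 library and in all 8 other alternatives tried for this comparison. Normalization added 0.062 to 0.21 to the log2 diet differences of the 9 genes, against the values without it.

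Within the f/f label, 3 of 9 genes passed in the diet comparison (*Tat*, *Got1* and *Prodh*), against 1.33% of all genes tested, and 6 of 9 had an unadjusted p under 0.05, against 19.2%. Within the LKO label, 2 of 9 passed (*Sds* and *Got1*), against 3.02%, and 6 of 9 had an unadjusted p under 0.05, against 21.3%. These calls rest on the spread shared by all 8 libraries. With the 4 libraries of each comparison alone 0 of 9 passed under either label. Leaving out CD-fed f/f-labelled library 1 or 2 or HFD-fed f/f-labelled library 2 left 0 calls under the f/f label, and leaving out HFD-fed f/f-labelled library 1 left 2 (*Tat* and *Prodh*). Under the LKO label, leaving out CD-fed library 1 or 2 or HFD-fed library 1 left 0 calls, and leaving out HFD-fed library 2 left 1 (*Sds*).

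**Figure D2:**
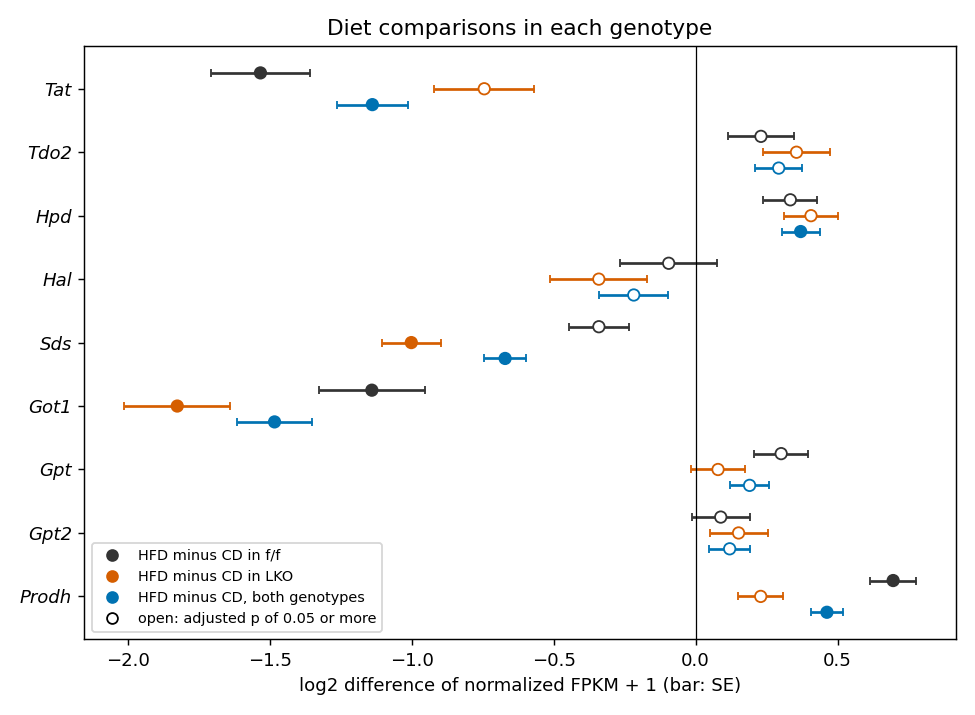
Log2 difference of normalized FPKM + 1, HFD minus CD (horizontal axis), for each gene (vertical axis) in f/f-labelled mice, in LKO-labelled mice and over both. Bars are SE from the fit of 8 libraries, and filled points passed at an adjusted p under 0.05. *Got1* is filled in all 3 comparisons, and the points of *Tat*, *Sds* and *Got1* lie left of 0 while those of *Prodh* and *Hpd* lie right of it.

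The comparison of the labels on CD asks whether loss of hepatic RORα was associated with different levels on a regular diet. The largest difference was that of *Tat*, to a ratio of 0.60 of the f/f-labelled level, and *Prodh* differed in the other direction, with a ratio of 1.19. Of the 9 genes 0 passed the adjusted limma test, against 0.0172% of all genes tested, and 2 (*Tat* and *Prodh*) had an unadjusted p under 0.05, against 12.3%. Of the 9 differences 8 were negative, with a median of −0.080, and the median over all genes was −0.00085. Of the marker lists, 5 of 5 erythroid markers were higher in LKO-labelled mice on CD (median 1.11, summed FPKM 247 to 502 against 85.9 to 420), 6 of 7 Kupffer cell and macrophage markers were lower (median −0.22, summed FPKM 59.3 to 60.8 against 61.2 to 74.1) and 6 of 7 pericentral markers were lower (median −0.14, summed FPKM 4961 to 5210 against 5502 to 5890). Of these markers 0 passed the adjusted limma test and 3, 1 in each list, had an unadjusted p under 0.05. Of 5 stellate cell markers 4 were lower in LKO-labelled mice on CD (median −0.145, summed FPKM 36.2 to 48.6 against 55.9 to 57.5). Of 7 periportal markers 4 were higher and 3 lower (median 0.026), with a lower summed FPKM (3855 to 4199 against 4444 to 4544). In the stellate and periportal lists 0 markers had an unadjusted p under 0.05. The part of all these markers in the differences was not tested.

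On HFD the same comparison showed the largest differences in *Got1* (ratio 0.589) and *Sds* (ratio 0.622), followed by *Hal*, *Gpt* and *Prodh* (ratios of 0.815, 0.82 and 0.86). Again 0 of 9 genes passed the adjusted limma test, against 0.043% of all genes, and 4 (*Sds*, *Got1*, *Gpt* and *Prodh*) had an unadjusted p under 0.05, against 9.58%. All but *Tat* had negative differences, with a median of −0.22 against −0.00067 over all genes. In the HFD-fed livers 7 of 7 markers of Kupffer cells and macrophages had positive LKO-labelled minus f/f-labelled differences (median 0.39), with a summed FPKM of 57.0 to 79.9 in LKO-labelled and 45.1 to 54.5 in f/f-labelled libraries. Of 7 periportal markers 6 were lower in LKO-labelled mice on HFD (median −0.092, summed FPKM 2896 to 2945 against 3335 to 3451), and of 7 pericentral markers 6 were higher (median 0.16, summed FPKM 6487 to 7899 against 7214 to 7249). The 5 erythroid markers were all higher (median 0.40, summed FPKM 121 to 198 against 65.8 to 228). Of these lists 0 markers passed the adjusted test, 3 Kupffer cell, 2 periportal and 2 pericentral markers had an unadjusted p under 0.05, and their part in the differences of the 9 genes was not tested. Averaged over both diets, 0 of 9 genes passed for genotype, against 0.103% of all genes, and 4 (*Tat*, *Sds*, *Got1* and *Gpt*) had an unadjusted p under 0.05, against 13.5%.

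**Figure D3:**
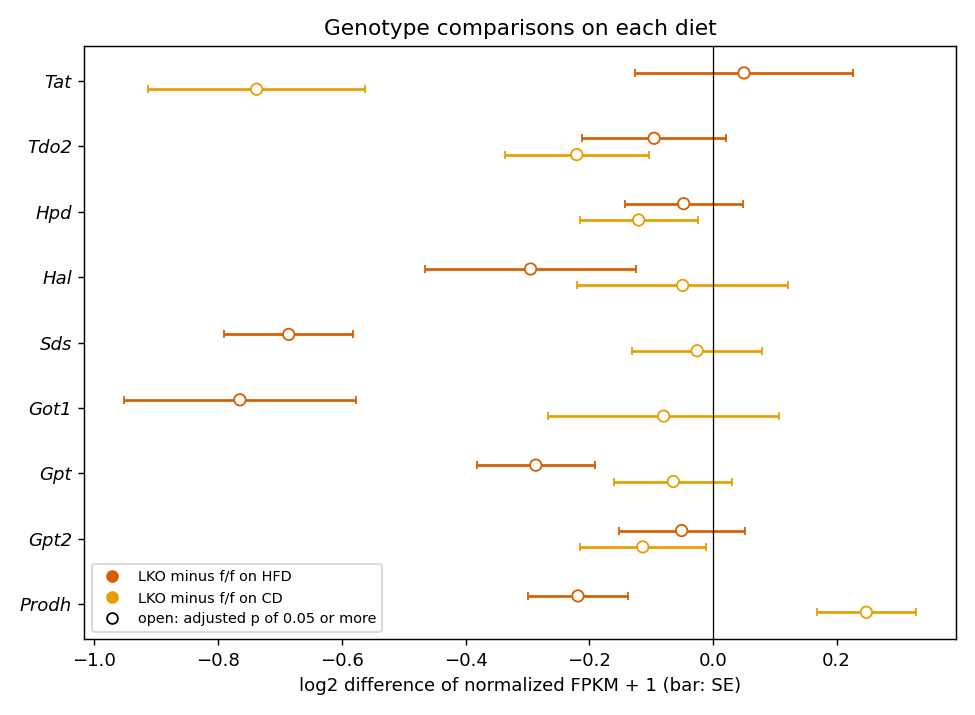
Log2 difference of normalized FPKM + 1, LKO-labelled minus f/f-labelled (horizontal axis), for each gene (vertical axis) on HFD and on CD. Bars are SE from the fit of 8 libraries. All points are open, since no gene passed at an adjusted p under 0.05. *Tat* stands apart from 0 on CD, *Sds* and *Got1* on HFD, and *Prodh* lies on opposite sides on the 2 diets.

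The interaction asks whether the difference between the labels depended on diet. It was positive for *Tat* (0.79 ± 0.25, adjusted p = 0.558) and negative for *Got1* (−0.69 ± 0.26, adjusted p = 0.576), *Sds* (−0.66 ± 0.15, adjusted p = 0.517) and *Prodh* (−0.47 ± 0.11, adjusted p = 0.517). After adjustment over all genes 0 of 9 passed, against 0.0344% of all genes tested, and these 4 had an unadjusted p under 0.05, against 8.35%. A difference between the labels that depends on diet was therefore not shown for any of the 9 genes. The comparisons of diet, genotype and interaction use the same 8 libraries and are not independent of each other.

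Of the other enzymes of amino acid metabolism, 66 from 8 pathways were tested. Over both genotypes 12 of the 66 rose and 6 fell with HFD, and this split moved to 6 and 10 without normalization and to 9 and 10 with median centring, so that no direction for the group as a whole can be given. Among those called under all 3 scalings were *Acmsd* (−1.37 ± 0.13, adjusted p = 0.00422), *Kyat3* (−0.79 ± 0.11, adjusted p = 0.0102) and *Kynu* (−0.34 ± 0.076, adjusted p = 0.0402), all of the kynurenine pathway below *Tdo2*. *Acmsd*, whose product diverts tryptophan carbon from NAD synthesis, was listed at 7.25 to 9.05 FPKM in CD-fed and at 1.65 to 3.08 FPKM in HFD-fed libraries. In sulfur amino acid metabolism *Bhmt* (betaine-homocysteine methyltransferase, 1.15 ± 0.13, adjusted p = 0.0068), *Bhmt2* (0.38 ± 0.051, adjusted p = 0.00968) and *Cdo1* (cysteine dioxygenase, 0.89 ± 0.068, adjusted p = 0.00313) rose, and *Csad* (cysteine sulfinate decarboxylase, −1.36 ± 0.27, adjusted p = 0.0292) and *Cth* (cystathionine gamma-lyase, −0.49 ± 0.065, adjusted p = 0.00936) fell, also under all 3 scalings. In glycine and threonine metabolism *Gcat* fell (−0.48 ± 0.073, adjusted p = 0.0132), and *Amt* (0.47 ± 0.068, adjusted p = 0.0118) and *Agxt2* (0.40 ± 0.076, adjusted p = 0.0263) rose. *Dhtkd1*, of lysine breakdown, rose as well (0.44 ± 0.065, adjusted p = 0.0119). Calls of *Shmt2*, *Bcat2* and *Aldh6a1*, all of which rose, held with median centring but not without normalization.

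**Figure D4:**
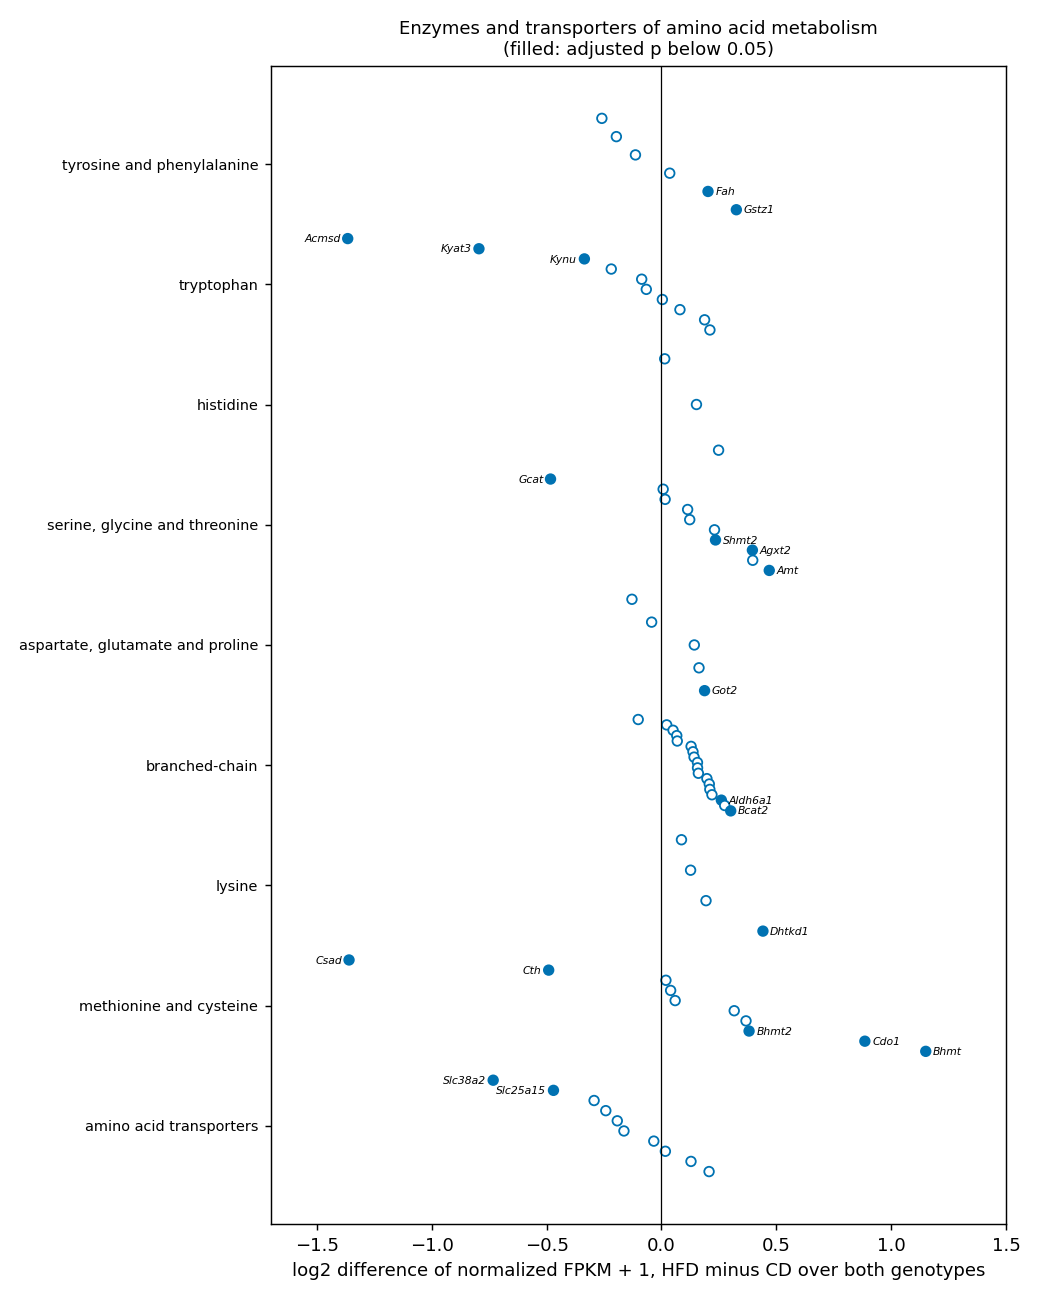
Log2 difference of normalized FPKM + 1, HFD minus CD over both genotypes (horizontal axis), for the other enzymes by pathway and for amino acid transporters (vertical axis). Each point is 1 gene, and filled points, with symbols, passed at an adjusted p under 0.05. *Acmsd* and *Csad* lie farthest left and *Bhmt* and *Cdo1* farthest right.

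Within each label fewer of the 66 enzymes passed. In f/f-labelled mice *Bcat2*, *Dhtkd1* and *Cdo1* rose (0.57, 0.65 and 0.80) and *Acmsd* fell (−1.24). In LKO-labelled mice *Aldh6a1*, *Bhmt*, *Bhmt2* and *Cdo1* rose (0.37, 1.47, 0.40 and 0.97) and *Acmsd* and *Gcat* fell (−1.49 and −0.61). Without normalization the calls of *Bcat2* and *Cdo1* in f/f-labelled mice and of *Aldh6a1* and *Bhmt2* in LKO-labelled mice were lost. For f/f-labelled mice *Bhmt* (0.83) and *Csad* (−1.34) were among the largest differences without passing (adjusted p = 0.0904 and 0.139). For the labels, 0 of the 66 passed on either diet. The largest positive values were those of *Gldc* and *Csad* (0.65 and 0.59 on HFD, 0.52 and 0.63 on CD), and the largest negative ones were those of *Bcat2* and *Sdsl* on HFD (−0.32 and −0.31) and of *Bhmt* and *Aadat* on CD (−0.68 and −0.34), with adjusted p between 0.262 and 0.673.

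Of 10 amino acid transporters, *Slc38a2*, a sodium-coupled neutral amino acid carrier, fell with HFD in f/f-labelled mice (−0.87 ± 0.094, adjusted p = 0.0249) and in LKO-labelled mice (−0.59 ± 0.094, adjusted p = 0.0308), and *Slc25a15*, the mitochondrial ornithine carrier, fell over both genotypes (−0.47 ± 0.077, adjusted p = 0.0167). Both calls over the 2 genotypes held under the other scalings, under which *Slc38a3* and *Slc38a4* fell as well (−0.24, adjusted p = 0.193, and −0.16, adjusted p = 0.101, after quantile normalization). *Slc38a2* was listed at 61.6 and 73.7 FPKM in CD-fed f/f-labelled and at 47.7 and 50.2 FPKM in CD-fed LKO-labelled libraries, and at 30.8 to 35.7 FPKM in the HFD-fed libraries. Of 10 regulators of amino acid catabolism, the cAMP-responsive *Crem* (−0.44 ± 0.077, adjusted p = 0.019) and *Cebpb* (−0.55 ± 0.12, adjusted p = 0.0325) fell and *Hnf4a* rose (0.28 ± 0.066, adjusted p = 0.0475) with HFD over both genotypes, and of these the call of *Hnf4a* was lost under both other scalings. *Cebpa* rose in f/f-labelled mice (0.59 ± 0.081, adjusted p = 0.0373), and its difference in LKO-labelled mice was −0.28 ± 0.081 (adjusted p = 0.112). Between the labels 0 of the 10 regulators passed the adjusted limma test, on CD, on HFD or over both diets. On CD their differences ranged from −0.88 to 0.46. There 5 had an unadjusted p under 0.05 (2 higher and 3 lower in LKO-labelled mice), against 12.3% of all genes. On HFD 1 did, against 9.58%, and over both diets 5, all lower, against 13.5%.

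Markers of the position of hepatocytes in the lobule also differed with diet. Of 7 periportal markers 6 had lower normalized values on HFD over both genotypes (median −0.30). *Cdh1* (−0.97), *Pck1* (−0.67) and *Cyp2f2* (−0.48) fell under all 3 scalings. *Gls2* (−0.29, adjusted p = 0.0639) and *Cps1* (−0.30, adjusted p = 0.0668) fell under the other 2 scalings only, and *Hsd17b13* (0.29) rose after quantile normalization alone. The median of the 7 was −0.46 without normalization and −0.43 with median centring. The summed FPKM of the 7 was 4444 to 4544 in CD-fed f/f-labelled, 3855 to 4199 in CD-fed LKO-labelled, 3335 to 3451 in HFD-fed f/f-labelled and 2896 to 2945 in HFD-fed LKO-labelled libraries. Of 7 pericentral markers 5 had higher values (median 0.23, but 0.096 without normalization and 0.12 with median centring). Over both genotypes *Cyp2e1* (0.92) rose and *Cyp1a2* (−0.73) fell under all 3 scalings. *Lgr5* (0.35) and *Glul* (0.23) rose over both genotypes after quantile normalization alone. In LKO-labelled mice *Lgr5* rose with a call under all 3 scalings (2.16 and 1.82 FPKM on CD, 3.94 and 3.99 on HFD). In f/f-labelled mice it was not called under any of the 3 (2.48 and 3.30 FPKM on CD, 2.72 and 2.52 on HFD). Of the 7 pericentral markers 2 (*Oat* and *Slc1a2*) also stand among the enzymes and transporters above. The summed FPKM of the 7 was 4961 to 5890 in CD-fed and 6487 to 7899 in HFD-fed libraries. Most of it came from *Cyp2e1*, at 3875 to 4680 FPKM in CD-fed and 5512 to 6770 FPKM in HFD-fed libraries. Of 5 stellate cell markers 4 had higher values on HFD, with a summed FPKM of 36.2 to 57.5 in CD-fed and 66.7 to 91.4 in HFD-fed libraries. Most of this sum came from *Dcn* (26.4 to 45.3 FPKM in CD-fed and 52.5 to 72.2 in HFD-fed libraries). All 5 endothelial markers were also higher (33.2 to 44.5 against 40.9 to 51.1 FPKM summed). Over both genotypes the stellate markers *Reln* and *Dcn* and the endothelial marker *Lyve1* rose with a call under all 3 scalings. The 5 erythroid markers were all lower on HFD (85.9 to 502 against 65.8 to 228 FPKM summed). Among them *Alas2* fell with a call over both genotypes under all 3 scalings. The 5 lymphocyte markers summed to at most 2.64 FPKM and the 5 adipocyte markers to at most 0.552 FPKM in any library. Of 5 hepatocyte markers, *Serpina1e* was listed at 5184 to 7083 FPKM in CD-fed and at 751 to 2779 FPKM in HFD-fed libraries, and it fell over both genotypes (−2.05, adjusted p = 0.00677) and in LKO-labelled mice (−2.68, adjusted p = 0.0194) under all 3 scalings. *Ttr* rose over both genotypes after quantile normalization alone. The Kupffer cell and macrophage markers were lower on HFD for 7 of 7 in f/f-labelled mice (median −0.30) and higher for 7 of 7 in LKO-labelled mice (median 0.19), and 0 passed the adjusted limma test in either, with 2 and 0 at an unadjusted p under 0.05. The part of these shifts in the differences of *Sds*, *Hal* and the other genes was not tested.

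For each of the 9 genes, the 2 genes with the most similar pattern over the 8 libraries were taken from 10724 genes with a mean of at least 1 FPKM by Pearson's r of normalized log2 values. They were *Dnajc11* (r = 0.987) and *Gtf2b* (0.981) for *Tat*, *Rps4x* (0.990) and *Nudt7* (0.984) for *Got1*, and *E130309D02Rik* (0.985) and *B3gnt2* (0.979) for *Sds*. They were *Smoc1* (0.969) and *Mmp14* (0.960) for *Prodh*, *Gm4952* (0.978) and *Sord* (0.972) for *Hpd*, and the gene listed as ENSMUSG00000026464 (0.967) and *N4bp2l1* (0.955) for *Tdo2*. For the genes with smaller differences they were *Rbm15b* (0.951) and *Cyp3a13* (0.94) for *Hal*, *Tesk2* (0.977) and *Fmc1* (0.967) for *Gpt*, and *Lars* (0.96) and *Mrpl20* (0.949) for *Gpt2*. These values describe 8 libraries that fall into 2 diets and carry no test.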

How the data were processed

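Liver RNA was sequenced from 8 libraries (TruSeq v2, Illumina HiSeq). According to the labels and methods, the authors trimmed reads with cutadapt 1.0, aligned them to GRCm38 with TopHat2 2.0.7 and estimated FPKM with Cufflinks. The deposited values are FPKM per gene, not on a log scale and not counts, so depth is unknown and no count test was run. Symbols were matched by Ensembl identifier in GENCODE M21 (36341 of 38283 genes).

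Genes had to exceed 1 FPKM in 1 library or more. A pseudocount of 1 was used, and log2 values were quantile normalized across libraries. A fold change on this scale understates the change of low genes. With limma 3.58.1 in R 4.3.3, 1 fit of the 4 group means with a mean-variance trend was made (4 residual and 2.8 prior degrees of freedom), with two-sided p-values and Benjamini-Hochberg adjustment over all genes and a threshold of 0.05. The permutation procedure of the study was not repeated. Results are log2 differences ± SE and FPKM before normalization. Promoters came from RefSeq (GRCm38.p6), and figures were drawn with matplotlib 3.10.9.

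The members and all gene lists were chosen with earlier results of these data known. Named beside the 9 members were the other enzymes, transporters and regulators with an adjusted p under 0.05 in any comparison, the 2 largest differences in each direction among the other enzymes for genotype on each diet and for diet in f/f-labelled mice, and the 2 genes most like each member. Alternatives tried were no normalization, median centring, a pseudocount of 0.1, filters of 1 FPKM in all 8 libraries or above 0 in at least 1 library, no trend, a replicate block, separate fits of the 4 libraries in a comparison, omission of each library and, chosen after seeing the data, removal of genes with a 0 in any library. The fit was tested on simulated data.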

Additional observations from a re-analysis of the deposited data

Results flagged for a closer look

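*Prodh* was singled out because the labels lay apart in opposite directions on the 2 diets. The share of all genes tested with this pattern was not counted. On CD the LKO-labelled pair stood higher (103 and 98.8 against 85.9 and 82.3 FPKM) and on HFD lower (111 and 112 against 124 and 143 FPKM) than the f/f-labelled pair. The interaction was −0.47 on the log2 scale and did not pass the limma test (adjusted p = 0.517). With 2 libraries per group no test for a single distant library was possible.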

How the results depend on the processing

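Under all alternatives tried 0 of 9 genes passed for genotype on either diet, for genotype over both diets and for the interaction. For HFD minus CD in f/f-labelled mice the count of 3 fell to 1 with the filter of FPKM above 0 (*Prodh*). It fell to 1 with the replicate block (*Got1*) and to 0 with the 4 libraries of the comparison alone. *Got1* was also lost in a further alternative that kept *Tat* and *Prodh*. Among the 9 alternatives other than omission of a library, *Tat* and *Got1* were each called in 6 and *Prodh* in 7. In LKO-labelled mice the count of 2 fell to 0 with the 4 libraries alone, was 0 to 1 with 1 library left out, and was 3, with *Tat* added, under 4 alternatives (no normalization, median centring, FPKM above 1 in all 8 libraries, and no genes listed at 0). Over both genotypes the count of 5 was 4 to 6 under all alternatives. Libraries with the same replicate number hold different animals, and the correlations of their deviations between groups were −0.0037 to 0.149, so that the numbers were not taken to pair the libraries, and the block changed no other call. Some differences near 0 changed sign with 1 library left out, and none of them passed under any setting. For genotype on HFD they ranged over −0.16 to 0.26 (*Tat*), −0.22 to 0.024 (*Tdo2*) and −0.11 to 0.021 (*Hpd*). For genotype on CD they ranged over −0.22 to 0.13 (*Hal*), −0.071 to 0.020 (*Sds*), −0.34 to 0.18 (*Got1*), −0.16 to 0.026 (*Gpt*) and −0.27 to 0.036 (*Gpt2*). For diet in f/f-labelled mice they ranged over −0.27 to 0.083 (*Hal*) and −0.061 to 0.24 (*Gpt2*). For the interaction they ranged over −0.017 to 0.17 (*Hpd*) and −0.087 to 0.22 (*Gpt2*), and for genotype over both diets over −0.030 to 0.057 (*Prodh*). Where a call was lost the cause was not tested. The 2 pooled libraries per group and the lack of counts limit the precision.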
